A study of Mus musculus with 9 samples.

Results

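The 20661 protein-coding genes on mouse chromosomes 1 to 19 were sorted into 4 classes by the peaks of H3K4me3 and H3K27ac at their ends in Dek-deleted LSK cells. A gene was counted as carrying a mark when a peak of that mark lay within 1 kb of either annotated end of the gene. Of the 20661 genes (of 21896 protein-coding genes in the reference, sex chromosomes included), 7417 carried both marks, 1668 carried H3K4me3 only, 1682 carried H3K27ac only and 9894 carried neither. LSK cells (Lin-Sca-1+c-Kit+) are the bone marrow gate that holds haematopoietic stem cells and multipotent progenitors. The series maps chromatin by CUT&Tag, in which a transposase tethered to an antibody cuts and tags the DNA beside the bound protein or mark. The classes rest on 2 of its 9 libraries, H3K4me3 and H3K27ac from about 50000 LSK cells each.

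The deleted (cKO) group consisted of Dekfl/fl,Tie2-Cre mice and the control (fl) group of Dekfl/fl mice without Cre, all C57BL/6 and 12 weeks old, in homeostasis. Both groups therefore carry the floxed Dek alleles. Tie2-Cre is active in blood-forming cells and in endothelium, so the deletion was not restricted to LSK cells. The fl LSK libraries of the same 2 marks, a cKO H3K9ac library from about 20000 HSC (the CD48-CD150+ cells of the LSK gate) and 3 fl DEK libraries from HSC are used below as readouts that did not enter the classes. Each LSK mark has 1 library per genotype, and how many animals gave the cells of a library is not given in the sources used here. No difference between marks or genotypes can therefore be tested, and the shares below carry exact Clopper-Pearson 95% intervals that cover counting error only. The promoter of Dek itself carried both marks in cKO LSK and H3K4me3 alone in fl LSK, which does not check the deletion, since the deleted part of the gene is not given.

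H3K4me3, trimethylated lysine 4 of histone H3, is laid down around the starts of genes, above all at CpG islands, and is found at active as well as poised promoters. H3K27ac, acetylated lysine 27 of the same histone, marks active promoters and also active enhancers, where H3K4me3 is low. At the promoter of an active gene the marks usually sit together on the nucleosomes that flank the start. In stem and progenitor cells, promoters of genes for other tissues are often held silent by Polycomb proteins, in many cases with some H3K4me3 present.

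A few promoters are shown for genes the results below turn on, and were not chosen as typical of their classes. Each is the RefSeq promoter of the GRCm38.p6 assembly, from 250 bases before to 50 bases after the start, written 5′ to 3′ on the strand of the gene with every CpG in capitals. Lig3, a DNA ligase that carried both marks, lies at chr11:82780859-82781158, plus strand. Oas1a, an interferon-induced antiviral enzyme with H3K4me3 only, lies at chr5:120907476-120907775, minus strand. S100a8, a neutrophil calcium-binding protein with H3K4me3 only, lies at chr3:90668821-90669120, plus strand. Lhx2, a homeobox factor of brain, eye and limb development with H3K27ac only, lies at chr2:38339031-38339330, plus strand. H2ac12, a replication-dependent histone H2A gene with H3K27ac only, lies at chr13:22035594-22035893, minus strand. Gm3448, a predicted gene with H3K27ac only that has near-identical copies, lies at chr17:15010135-15010434, minus strand.
Lig3: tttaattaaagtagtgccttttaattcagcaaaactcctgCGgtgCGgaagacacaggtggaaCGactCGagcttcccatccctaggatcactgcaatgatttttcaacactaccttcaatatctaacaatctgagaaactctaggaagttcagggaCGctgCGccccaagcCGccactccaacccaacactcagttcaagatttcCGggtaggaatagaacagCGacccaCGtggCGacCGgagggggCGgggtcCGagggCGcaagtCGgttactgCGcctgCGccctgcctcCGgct
Oas1a: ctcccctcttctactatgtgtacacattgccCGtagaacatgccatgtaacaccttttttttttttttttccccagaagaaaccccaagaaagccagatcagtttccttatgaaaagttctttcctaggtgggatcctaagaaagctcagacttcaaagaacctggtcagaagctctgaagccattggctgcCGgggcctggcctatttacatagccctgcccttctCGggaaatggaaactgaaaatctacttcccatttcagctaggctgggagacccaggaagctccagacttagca
S100a8: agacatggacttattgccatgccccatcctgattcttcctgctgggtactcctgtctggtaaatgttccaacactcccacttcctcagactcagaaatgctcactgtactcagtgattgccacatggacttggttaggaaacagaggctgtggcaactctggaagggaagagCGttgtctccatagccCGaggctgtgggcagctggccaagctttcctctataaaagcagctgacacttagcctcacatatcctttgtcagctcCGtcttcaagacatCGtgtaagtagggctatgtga
Lhx2: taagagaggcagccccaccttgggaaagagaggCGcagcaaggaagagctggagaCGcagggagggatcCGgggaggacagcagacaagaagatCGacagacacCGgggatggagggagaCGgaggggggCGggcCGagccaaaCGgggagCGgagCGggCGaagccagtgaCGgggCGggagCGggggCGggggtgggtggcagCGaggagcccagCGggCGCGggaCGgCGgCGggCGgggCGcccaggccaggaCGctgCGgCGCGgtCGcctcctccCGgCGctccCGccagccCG
H2ac12: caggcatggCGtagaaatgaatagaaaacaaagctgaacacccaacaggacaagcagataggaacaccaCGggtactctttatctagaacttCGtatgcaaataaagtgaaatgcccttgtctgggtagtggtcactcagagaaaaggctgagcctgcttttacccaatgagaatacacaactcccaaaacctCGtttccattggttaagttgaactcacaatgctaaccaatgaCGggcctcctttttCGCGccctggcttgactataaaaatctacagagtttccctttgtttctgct
Gm3448: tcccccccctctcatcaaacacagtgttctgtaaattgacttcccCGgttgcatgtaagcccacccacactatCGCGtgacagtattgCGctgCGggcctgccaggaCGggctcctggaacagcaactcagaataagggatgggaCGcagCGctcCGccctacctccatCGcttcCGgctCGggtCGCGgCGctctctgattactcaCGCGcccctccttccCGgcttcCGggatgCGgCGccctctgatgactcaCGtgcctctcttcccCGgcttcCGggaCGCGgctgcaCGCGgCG
The Lhx2 promoter held 34 CpGs and the ratio of observed to expected CpG was 0.885, whereas the promoters of Oas1a and S100a8 held 3 and 4 CpGs with ratios of 0.188 and 0.214. Over the whole H3K4me3-only class the median was 16 CpGs and a ratio of 0.682, so that Oas1a and S100a8 are CpG-poor examples of it. Lig3 held 19 CpGs, for a ratio of 0.874. The H2ac12 promoter was AT-rich, with 7 CpGs, and held TATAAA. All 300 of 300 bases of the Gm3448 promoter were the same as those of Gm3417, a neighbour on chromosome 17.

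In cKO LSK both marks lay at 35.9% of genes (95% interval 35.2 to 36.6), H3K4me3 only at 8.07% (7.71 to 8.45), H3K27ac only at 8.14% (7.77 to 8.52) and neither at 47.9% (47.2 to 48.6). The classes with a lone mark were thus nearly equal in size. In fl LSK, classed by the same rule, both marks lay at 21.9% of genes, H3K4me3 only at 23.3%, H3K27ac only at 1.03% and neither at 53.8%. The fl lists therefore gave 4808 H3K4me3-only and 212 H3K27ac-only genes against 1668 and 1682 in cKO. The lists differ in length beside these counts: on chromosomes 1 to 19 the cKO lists held 9863 H3K4me3 and 15422 H3K27ac peaks, and the fl lists 10199 and 9774. The depth of the libraries is unknown, so more marked places and a more sensitive library cannot be told apart. With the cKO H3K27ac list shortened to its 9863 strongest peaks, 486 genes were H3K27ac only and 2932 were H3K4me3 only.

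**Figure D1:**
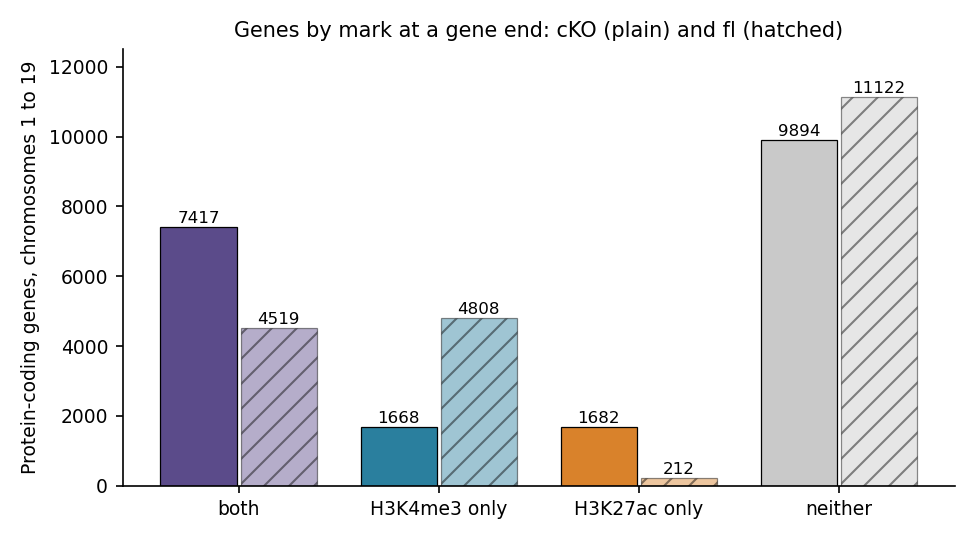
Number of protein-coding genes (y axis) in each class of marks at a gene end (x axis), with plain bars for cKO LSK and hatched bars for fl LSK, 1 library per mark and genotype. H3K27ac only held 1682 genes in cKO and 212 in fl, and H3K4me3 only held 1668 and 4808.

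The gate could be checked against its marker genes, though a promoter mark is not an expression level. Of 10 markers of the gate and of stem cells, Kit, Cd34, Flt3, Gata2, Tal1 and Meis1 carried both marks, Runx1 carried H3K4me3 only, and 3 carried neither, among them Ly6a (which encodes Sca-1) and Slamf1. All 8 markers of mature cells outside the gate (among them Cd3e, Ms4a1, Itgam, Ly6g, Klrb1c and Cd8a) carried neither mark in cKO or fl LSK. Of all genes, 47.9% carried neither in cKO and 53.8% in fl. On the longer lists below, 17 of 22 B-cell, 25 of 32 T and NK cell and 22 of 38 granulocyte and monocyte genes carried neither in cKO. Cd79a, Cd4, Cd3d and S100a8 were among those that carried a mark. Of 4 endothelial markers Kdr carried H3K27ac only, and Cdh5, Pecam1 and Emcn carried neither.

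Peaks of the lone-mark classes were weaker than those of genes with both marks. The peak caller's −log10 q, which rises as a peak stands further above its own library's background, had a median of 22.8 for the H3K27ac peaks of genes with both marks and 10.3 for those of H3K27ac-only genes. The fold over background was 11.4 against 7.89 and the peak width 583 against 426 bp (medians). For H3K4me3 the median −log10 q was 25.0 with both marks and 15.1 in the H3K4me3-only class, the fold 9.67 against 8.47 and the width 840 against 660 bp. These values are the authors' and are comparable only within a list.

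The strength of a gene's peak therefore went with the presence of the other mark, and more steeply for H3K27ac. Genes with an H3K27ac peak were ranked by that peak and split into 5 groups of equal size. In the strongest group 3.96% lacked H3K4me3 (3.11 to 4.96), in the middle group 8.19% (6.97 to 9.54), and in the weakest group, with a −log10 q between 2.66 and 11.7, 54.6% did (52.3 to 57.0). Of the genes with an H3K4me3 peak, 7.59% lacked H3K27ac in the strongest group (6.42 to 8.91), 16.7% in the middle and 33.7% in the weakest (31.6 to 36.0). The H3K27ac-only class thus came largely from the weak end of its list, while H3K4me3-only genes were spread over the strengths of theirs.

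**Figure D2:**
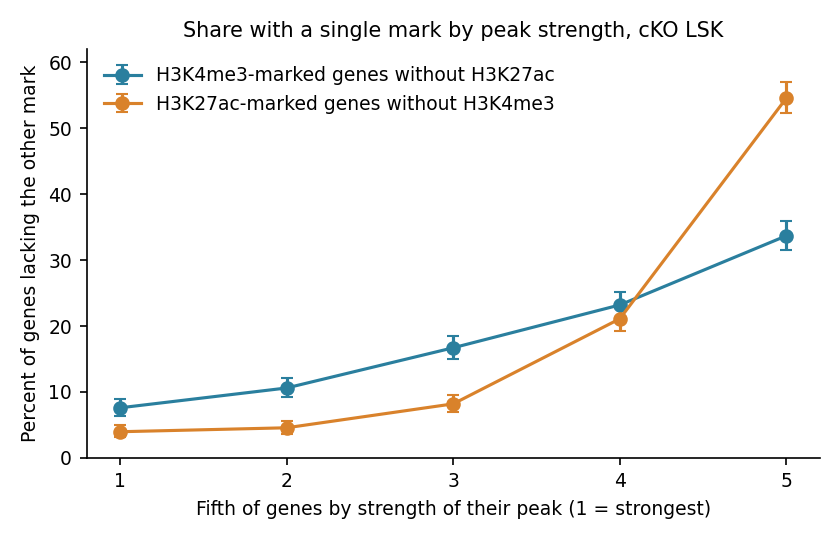
Percent of marked genes that lack the other mark (y axis) in 5 groups of genes by the −log10 q of their peak (x axis, 1 the strongest), cKO LSK, with exact 95% binomial intervals for counting error. Among H3K27ac-marked genes the share goes from 3.96% to 54.6%, among H3K4me3-marked genes from 7.59% to 33.7%.

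In both lone classes most deciding peaks lay at the start of the gene. Where the reference gives the strand, the peak lay at the 5′ end alone in 93.3% of H3K4me3-only genes (91.8 to 94.5) and in 87.5% of H3K27ac-only genes (85.6 to 89.2). It lay at the 3′ end alone in 2.64% and 6.17%. The peaks of genes with both marks overlapped each other in 96.5% of genes, with a median of 137 bp between summits. Few lone marks had the other mark just outside the 1 kb limit: a peak of the missing mark lay 1 to 1.5 kb from an end of 66 H3K27ac-only genes (3.92%) and 109 H3K4me3-only genes (6.53%). Just inside it, 317 genes with both marks (4.27%) had their nearest H3K4me3 peak, and 432 (5.82%) their nearest H3K27ac peak, 500 to 1000 bp from an end. No peak of the missing mark lay within 5 kb of 1397 H3K27ac-only genes (83.1%) and 1237 H3K4me3-only genes (74.2%). An H3K27ac peak lay somewhere inside 190 of the 1668 H3K4me3-only genes (11.4%), and an H3K4me3 peak inside 126 of the 1682 H3K27ac-only genes (7.49%).

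Promoters of H3K27ac-only genes were richer in GC than those of H3K4me3-only genes, and in CpG content both lone classes stood between the genes with both marks and those with neither. A RefSeq promoter was at hand for 16456 of the 20661 genes. The median GC content was 64.0% in H3K27ac-only, 56.0% in H3K4me3-only, 63.7% in both and 49.3% in neither. Promoters with a GC content above 50% and an observed over expected CpG above 0.6 were called CpG-rich. They made up 65.2% of the H3K27ac-only class (62.5 to 67.7) and 54.7% of the H3K4me3-only class (52.0 to 57.3). The share was 81.9% with both marks, 15.4% with neither and 47.0% over all promoters. The 457 H3K27ac-only promoters that were not CpG-rich had peaks about as strong as the 855 that were, with median −log10 q of 10.1 and 10.5.

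**Figure D3:**
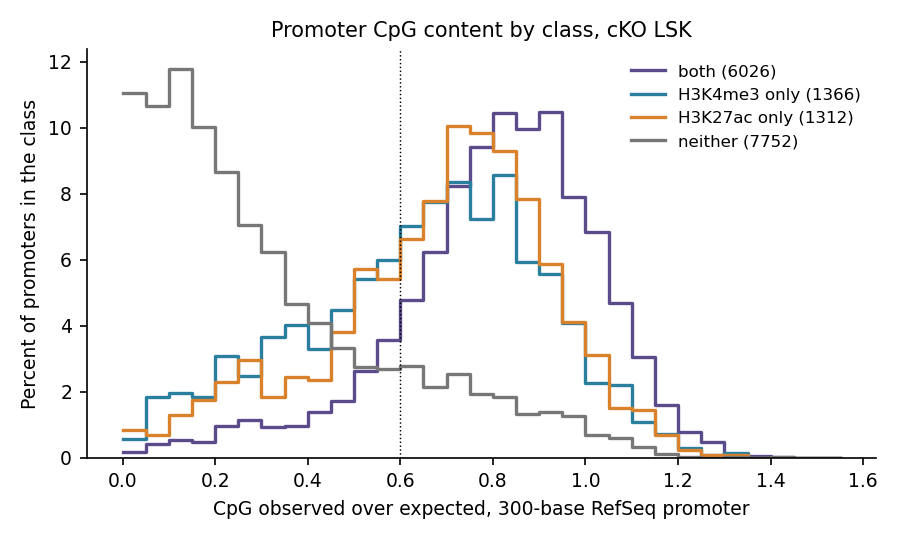
Percent of the promoters of each class (y axis) by the ratio of observed to expected CpG (x axis) in 300-base RefSeq promoters, with the number of promoters in parentheses and a dotted line at 0.6. The medians are 0.83 for both marks, 0.717 for H3K27ac only, 0.682 for H3K4me3 only and 0.236 for neither.

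Of 5 short motifs searched on both strands, CGGAAG, the core bound by ETS factors, separated the lone marks. It occurred in 36.2% of H3K4me3-only promoters (33.7 to 38.9) and in 17.1% of H3K27ac-only promoters (15.1 to 19.3), beside 36.9% with both marks, 8.59% with neither and 21.9% of all promoters. Within CpG-rich promoters alone, a split made after these shares were seen, it occurred in 46.1% of H3K4me3-only (42.4 to 49.7), 19.4% of H3K27ac-only (16.8 to 22.2), 39.7% of both and 20.8% of neither. Among these the interval of the H3K27ac-only share overlapped that of unmarked CpG-rich promoters (18.5 to 23.2), and the H3K4me3-only share was above that of genes with both marks (38.3 to 41.1). In promoters that were not CpG-rich it occurred in 24.4% of H3K4me3-only (21.1 to 28.0), 12.9% of H3K27ac-only (9.98 to 16.3), 24.1% of both and 6.37% of neither (5.8 to 6.99), so that there the H3K27ac-only share lay above that of unmarked promoters. The other motifs differed less between the lone marks. TATAAA, the TATA box, occurred in 8.05% of H3K4me3-only and 8.54% of H3K27ac-only promoters (13.5% of all). GAGGAA, a form of the PU.1 core, occurred in 28.4% and 23.1% (27.2% of all). AGATAA, bound by GATA factors, occurred in 7.91% and 5.64% (9.85% of all), and TGTGGT, a RUNX site, in 14.3% and 10.5% (14.8% of all). A match is only a run of letters, binding was not measured, and none of these motifs holds another whole.

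Most H3K4me3-only genes had the same class in fl LSK, and most H3K27ac-only genes had no mark there. Of the 1668 H3K4me3-only genes, 1464 were H3K4me3 only in fl (87.8%, 86.1 to 89.3), 153 had neither mark (9.17%) and 48 had both (2.88%). Of the 1682 H3K27ac-only genes, 1190 had neither mark in fl (70.7%, 68.5 to 72.9), 242 had H3K4me3 only (14.4%), 152 H3K27ac only (9.04%) and 98 both (5.83%). Read from fl LSK, where the classes differ in size, 152 of the 212 H3K27ac-only genes and 1464 of the 4808 H3K4me3-only genes had the same class in cKO. The 340 H3K27ac-only genes with an fl H3K4me3 peak had it weakly, with a median −log10 q of 8.2 against 24.5 over all fl H3K4me3 peaks, and 82 of them had a cKO H3K4me3 peak within 5 kb.

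The gene lists below group genes by cell type or function and are read against the shares of all genes, 8.14% for H3K27ac only and 8.07% for H3K4me3 only. A gene may stand on more than 1 list.

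**Figure D4:**
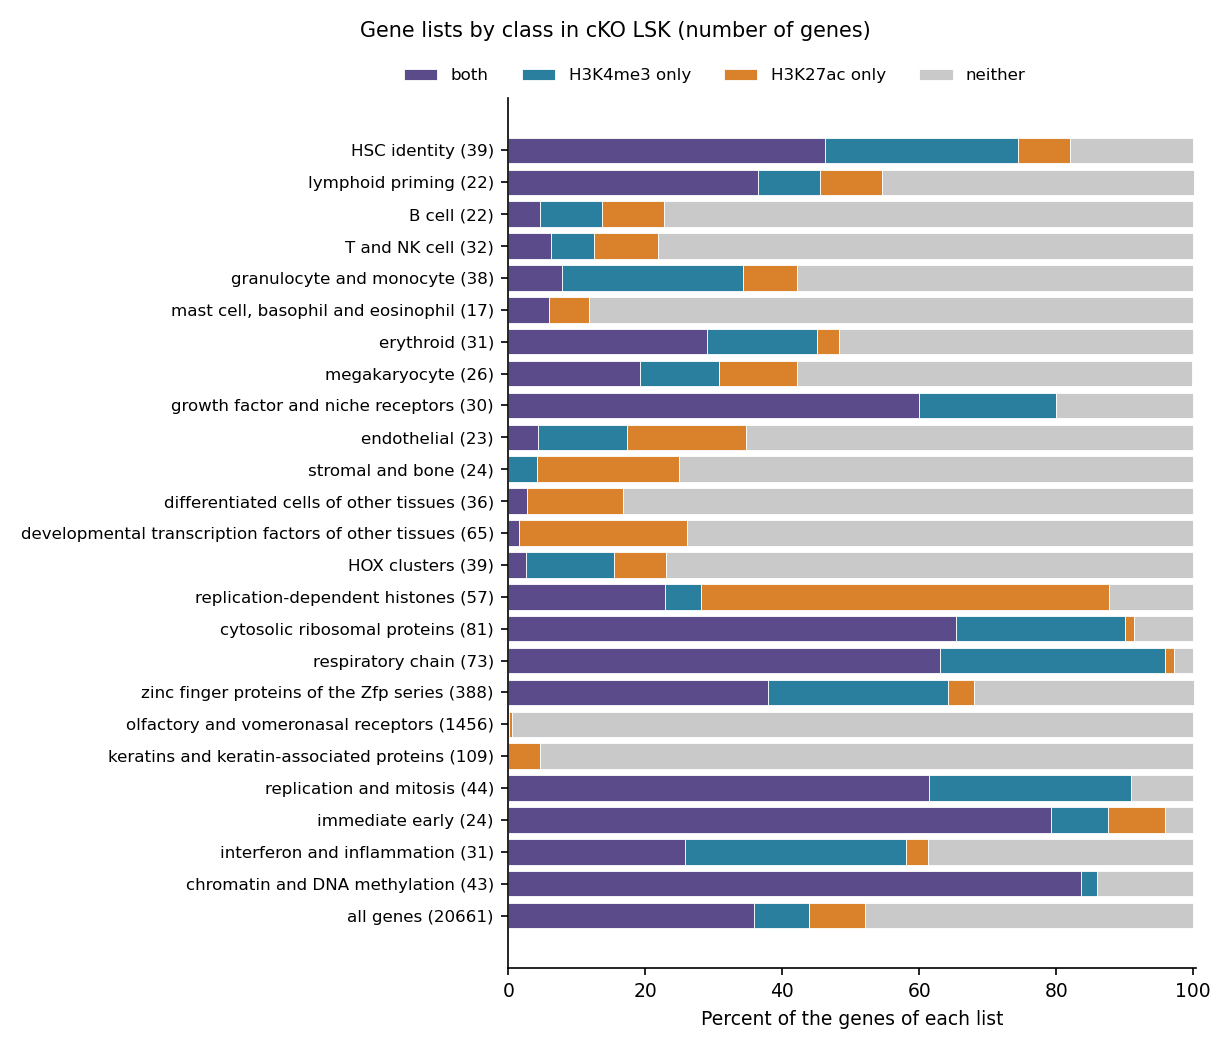
Percent of the genes of each list (x axis) in each class in cKO LSK, with the list and its number of genes on the y axis and all genes at the bottom. H3K27ac only covers 59.6% of the histone genes and 24.6% of the developmental transcription factors; H3K4me3 only covers 32.9% of the respiratory chain and 32.3% of the interferon list.

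Transcription factors that pattern other tissues appeared in the H3K27ac-only class and almost nowhere else among the marked genes. Of 65 such genes 16 carried H3K27ac only (24.6%), 0 H3K4me3 only, 1 both (Gbx2) and 48 neither. They were the neuronal factors Neurog2, Neurod2, Sim1 and Isl1, the homeobox genes Lhx2, Dlx1, Alx4, Msx1, Msx2, Gsc, Six2, Nkx6-1 and Cdx2, and the mesoderm and neural crest factors Hand2, Twist1 and Foxd3. All 16 carried neither mark in fl LSK, and none had a cKO H3K4me3 peak within 5 kb, the nearest lying between 28585 and 714589 bp away. Of the 15 with a reference promoter, 13 were CpG-rich.

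Their peaks were weak. The −log10 q ran from 3.63 (Nkx6-1) to 10.5 (Alx4) with a median of 8.05, against 10.3 over all H3K27ac-only genes, and the fold over background from 4.46 to 8.08. Lhx2, whose CpG-dense promoter is printed above, had its peak at chr2:38339496-38339861 with a −log10 q of 8.54. Isl1, a factor of motor neurons and the heart, had a −log10 q of 9.88 at chr13:116309748-116310088. By strength they stood at places 11768 to 15400 of the 15422 H3K27ac peaks, so that 0 of the 16 were left when the list was shortened to its 9863 strongest peaks. The depth behind these peaks is unknown, and with 1 cKO library they have no replicate.

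HOX genes, which set position along the body axis and whose A-cluster members act in blood stem cells, were mostly unmarked. Of 39 genes 30 carried neither mark (76.9%). H3K27ac only, at 7.69% near the share of all genes, was carried by 3, all in the D cluster. Their −log10 q was 3.97 (Hoxd13), 5.52 (Hoxd8) and 5.76 (Hoxd1). H3K4me3 only was carried by 5, namely Hoxa3, Hoxa4, Hoxa9, Hoxa10 and Hoxb2, with −log10 q from 6.87 to 28.4, and all 5 had it in fl LSK too. Hoxb4 was the 1 gene with both marks. With lists of equal length 0 HOX genes were H3K27ac only, and with annotated starts only, which leaves out genes without a strand in the reference, 1 was H3K4me3 only.

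Most genes of stroma, bone and other differentiated tissues carried neither mark, 18 of 24 and 30 of 36. Of the 24 stromal and bone genes 5 carried H3K27ac only (20.8%): Alpl, the bone alkaline phosphatase, Sp7, a factor of osteoblasts, Col2a1, a cartilage collagen, Cxcl12, the niche chemokine, and Nes, an intermediate filament. Their −log10 q ran from 4.97 (Nes) to 15.9 (Alpl), and all 5 had neither mark in fl LSK. Kitl, the ligand of Kit, was the 1 gene of that list with H3K4me3 only. Of the 36 genes of other differentiated cells 5 carried H3K27ac only (13.9%), namely Lgr5, Slc17a7, Krt10, Krt1 and Actn2, with −log10 q between 4.45 and 9.59. With lists of equal length these counts of 5 and 5 became 1 and 0, and with annotated starts only 3 and 2. Of 1456 olfactory and vomeronasal receptor genes 1448 carried neither mark (99.5%), and of 109 keratin and keratin-associated genes 104 did.

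Endothelial genes, of interest because Tie2-Cre also acts in endothelium, were found in both lone classes. Of 23 genes 4 carried H3K27ac only (17.4%): the VEGF receptors Kdr (−log10 q 13.8) and Flt1 (12.5), the receptor partner Ramp2 (12.3) and the arterial factor Sox17 (10.3). In fl LSK Ramp2 was H3K4me3 only and the other 3 had neither mark. H3K4me3 only was carried by Eng (16.8), Esam (9.74) and Robo4 (4.85), of which each also had H3K4me3 only in fl LSK, and Flt4 carried both marks. The other 15 carried neither, among them Cdh5, Pecam1 and Emcn. Whether endothelial cells were present in the sort was not tested.

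**Figure D5:**
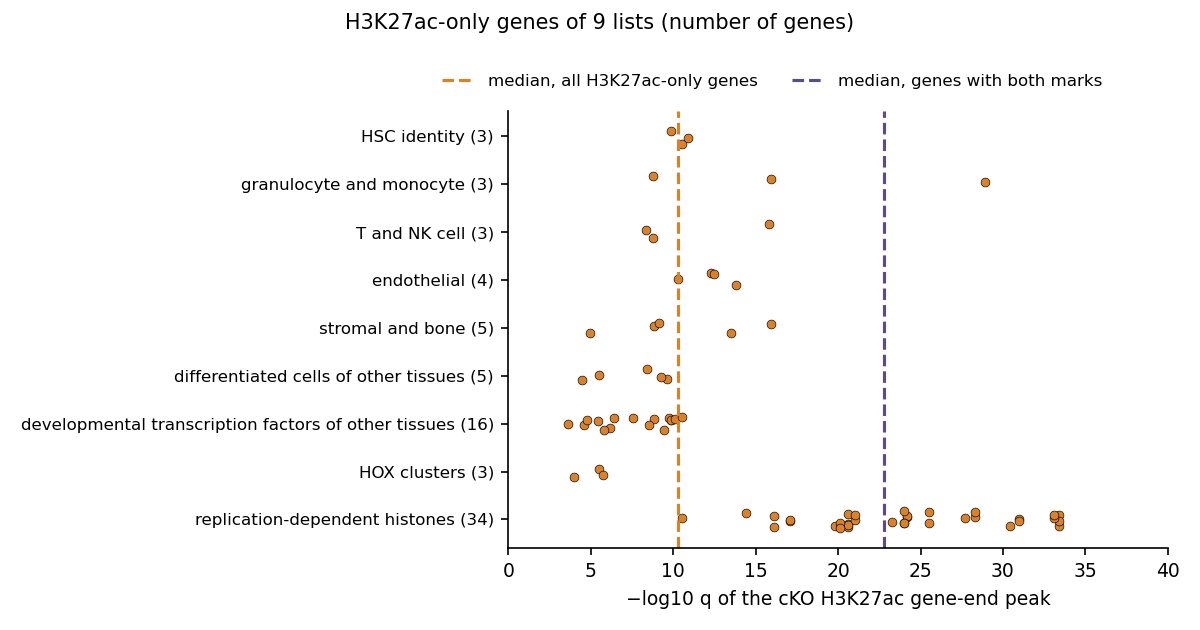
The −log10 q of the cKO H3K27ac gene-end peak (x axis) of each H3K27ac-only gene of 9 lists (y axis, number of genes in parentheses), 1 point per gene, with dashed lines at the medians of all H3K27ac-only genes (10.3) and of genes with both marks (22.8). Developmental factors lie between 3.63 and 10.5, histone genes between 10.5 and 33.4.

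Replication-dependent histone genes were the other group with many H3K27ac-only members, and here the peaks were strong by −log10 q. These short, intronless genes are transcribed in S phase, and many sit head to head in clusters, here on chromosomes 13 and 3. Of 57 genes 34 carried H3K27ac only (59.6%), 13 both, 3 H3K4me3 only (H4c14, H2bc6 and H4c8) and 7 neither. On chromosome 13 it was 30 of 47 genes and on chromosome 3 it was 4 of 10. The 34 genes rest on 19 distinct peaks, since neighbours share a peak and the genes are shorter than the window. Their −log10 q ran from 10.5 to 33.4 with a median of 24.0, above the 22.8 of genes with both marks. Their median fold of 10.1 and width of 446 bp were below the 11.4 and 583 bp of genes with both marks. These medians are over genes, so a shared peak counts more than once.

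The histone class was also seen in fl LSK, where 16 of the 34 were H3K27ac only, 8 had an H3K4me3 peak and 10 had neither mark. H2ac12, which shares its peak with H2bc12 (chr13:22035153-22035707), had a −log10 q of 33.1 in cKO, an H3K27ac peak in fl LSK too, and no H3K4me3 peak at its ends in either. In cKO its nearest H3K4me3 peak was 13241 bp away, and 29 of the 34 genes had none within 5 kb. Of 32 histone promoters in the class 6 were CpG-rich. The 32 had a median ratio of observed to expected CpG of 0.805, above the 0.717 of all H3K27ac-only promoters. Their median GC content was 44.0%, against 64.0%. The median ratio thus met the CpG-rich rule, and the median GC content fell short of it. H2ac12, with a ratio of 0.486, lay below the median of the 32. Of the 32, 8 shared a stretch of 50 bases or more with another promoter, a property that bears on where reads can be placed. With such promoters left out 24 histone genes were H3K27ac only, and with the shortened H3K27ac list 33 were.

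Several of the strongest H3K27ac-only peaks lay at genes with a copied promoter. The 12 genes with the highest −log10 q were the neighbours Gm3435 and Gm3448, which share the strongest H3K27ac peak at any gene end (78.4), 9030025P20Rik and Gm3417 (78.0), the olfactory receptor Olfr38 (63.7), Gm40369 (59.0), Mtln, which encodes a mitochondrial micropeptide (57.8), Gm32687 (54.4), the zinc finger gene Zfp433 (53.3), Entpd4b with LOC115488278 (52.1) and Entpd4 (51.9). The Olfr38 peak lay 657 bp past the 3′ end of the gene, and the Gm40369 peak was counted at the 3′ end. The nearest H3K4me3 peak was 1180 bp from Gm40369, 2058 bp from Mtln and 2871 bp from Gm3417. Among genes with no H3K4me3 peak within 5 kb, Fam177a (49.6), Vmn1r48 (48.1) and Fam177a2 (47.0) followed. In the promoters of Gm3448, Gm3417, Gm32687, Zfp433 and Vmn1r48, between 80.1 and 100.0% of the overlapping 50-base stretches also occurred at another place in the reference promoters. The Vmn1r48 peak, however, lay 129 bp past the 3′ end of the gene and not at its promoter. A shared stretch of 50 bases or more occurred in 5.56% of H3K27ac-only promoters (4.39 to 6.95), 2.93% of H3K4me3-only, 0.813% of both and 15.1% of neither. Over all promoters the share was 8.11%, above that of the H3K27ac-only class as a whole. In the strongest of 10 groups of H3K27ac-only genes by peak strength it was 28 of 132 promoters (21.2%, 14.6 to 29.2). The search compared reference promoters only, and Entpd4, Fam177a and Fam177a2 have none. A match to such a gene would be missed, so these shares may be too low. On chromosome Y, which is rich in repeats, the cKO H3K27ac list held 166 peaks and the cKO H3K4me3 list 0. The sex of the animals behind each library is not reported here, and its part in these counts was not tested. Whether reads from copied sequence were treated alike in the lists is not given in the sources used here, and its part in the class was not tested.

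Genes with a strong lone H3K27ac peak and no shared promoter stretch, chosen after their values were seen, included housekeeping genes with CpG-rich promoters. Pole4, a subunit of DNA polymerase epsilon, had a −log10 q of 46.1 and was H3K27ac only in fl LSK as well. Srd5a3 (45.2) and Msmo1 (42.1), enzymes of dolichol and cholesterol synthesis, carried both marks in fl LSK. The same held for Wdsub1 (38.5), Cep72, a centrosomal protein (37.6), and Apba3 (37.2). In cKO their nearest H3K4me3 peak lay between 8891 and 154471 bp away.

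H3K4me3 only held a larger share of the stem cell identity list than of all genes, and H3K27ac only a share near that of all genes. Of 39 genes of stem cell identity 18 carried both marks, 11 H3K4me3 only (28.2%), 3 H3K27ac only (7.69%) and 7 neither. Among the 11 were the transcription factors Runx1 (−log10 q 32.2), Gfi1b (29.4), Hoxa10 (28.4), Fli1 (21.1), Prdm16 (17.4), Hoxa9 (12.3) and Lmo2 (3.63), the Polycomb gene Bmi1 (4.34), and Myct1 (10.0) and Fgd5 (4.85). All but Lmo2 were H3K4me3 only in fl LSK. Of the 11, 7 had an H3K27ac peak inside the gene, away from its ends. Runx1, which is required for definitive blood formation, had its H3K4me3 peak at chr16:92824920-92825995 and 2 H3K27ac peaks within the gene. The 3 with H3K27ac only were Erg (9.88), Gfi1 (10.5) and Cdkn1c (10.9), and Erg and Gfi1 held H3K4me3 peaks inside the gene. The 11 H3K4me3-only genes became 19 with lists of equal length and 7 with annotated starts only.

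Most granulocyte and monocyte genes carried neither mark, and those with a mark at a gene end mostly carried H3K4me3 alone. Of 38 genes 10 carried H3K4me3 only (26.3%), 3 both (Cebpa, Cebpb and Klf4, transcription factors), 3 H3K27ac only and 22 neither. The 10 held the granule protease gene Prtn3 (−log10 q 30.9), the signalling adaptors Fcer1g (14.7) and Tyrobp (10.2), the growth factor receptor genes Csf3r (13.8), Csf2rb (6.87) and Csf2ra (4.67), S100a8 (12.0), Cd52 (8.64), Cd14 (6.25) and the iron-binding Lcn2 (4.42). S100a8, Tyrobp and Lcn2 carried neither mark in fl LSK and the other 7 were H3K4me3 only there. The median −log10 q of the 10 was 9.44, against 15.1 over all H3K4me3-only genes. Only 5 of the 10 had no H3K27ac peak within 5 kb. Of 6 with a reference promoter 1 was CpG-rich. The S100a8 peak lay at chr3:90669111-90669469, beside a promoter that holds TATAAA and few CpGs. H3K27ac only was carried by the Fc receptor gene Fcgr3 (28.9), the monocyte and dendritic factor Irf8 (15.9) and the granulocyte factor Cebpe (8.74). With annotated starts only, 5 genes of this list were H3K4me3 only.

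The other lineages gave small counts in each lone class. Of 31 erythroid genes 5 carried H3K4me3 only (Bcl11a at −log10 q 44.0, Epor 14.8, Kel 6.97, Hbb-bt 3.98 and Rhd 3.54) and Blvrb, an enzyme of haem breakdown, carried H3K27ac only (14.7). Kel, Hbb-bt and Rhd had neither mark in fl LSK. Of 26 megakaryocyte genes the platelet glycoprotein genes Gp5 (17.4), Gp9 (9.55) and Gp1bb (7.78) carried H3K27ac only, and 3 carried H3K4me3 only, among them Plek (12.4) and Thbs1 (7.13). In 2 of the 3 glycoprotein genes the H3K27ac peak lay at the 3′ end alone. With annotated starts only, each lone class held 1 gene of this list. Of 22 B-cell genes Cd79a (39.8) and Ebf1 (10.9) carried H3K27ac only and Cd72 (10.0) and Cd79b (3.03) H3K4me3 only. The Cd79a peak lay at the 3′ end, 1 kb or less past the gene. Of Cd79a and Ebf1, 1 held an H3K4me3 peak inside the gene, and the nearest H3K4me3 peak to the other was 2074 bp away. Of 22 lymphoid priming genes Ikzf3 (21.5) and Tcf4 (18.0) carried H3K27ac only, and Bcl11a and Cd27 (28.8) H3K4me3 only. Of Ikzf3 and Tcf4, 1 held an H3K4me3 peak inside the gene. Of 32 T and NK cell genes Cd4 (15.8), Tcf7 (8.79) and Eomes (8.35) carried H3K27ac only and Cd247 (6.82) and Cd3d (6.55) H3K4me3 only. Of 17 mast cell, basophil and eosinophil genes Alox5 (7.77) carried H3K27ac only and none H3K4me3 only.

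Receptors for growth factors and niche signals mostly carried both marks, 18 of 30, with 6 H3K4me3 only (20.0%) and 0 H3K27ac only. Among the 6 were Cd44, a hyaluronan receptor (−log10 q 24.8), S1pr1, a lipid receptor (11.3), and the integrin gene Itgal (8.17). Interferon and inflammation genes were H3K4me3 only in 10 of 31 (32.3%): the transcription factors Irf9 (23.6), Irf7 (19.7), Stat2 (19.1) and Irf3 (16.9), and Oasl2 (18.1), Oas1a (12.7), Bst2 (10.3), Gbp2 (7.97), Ifit2 (5.79) and Tnf (4.66). Of the 10, 9 had no H3K27ac peak within 5 kb, 9 were H3K4me3 only in fl LSK and 2 had a CpG-rich promoter. Socs3, an inhibitor of cytokine signalling, was the 1 with H3K27ac only (22.5). An H3K4me3 peak lay inside Socs3, and the H3K4me3 peak nearest to an end of it was 1 to 1.5 kb away. Irf1 and Nfkb1 were among the 8 with both marks.

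Housekeeping lists held many H3K4me3-only genes and almost no H3K27ac-only ones. Of 73 respiratory chain genes 24 were H3K4me3 only (32.9%), 46 both, 1 H3K27ac only (Atp5d) and 2 neither. Examples of the 24 were Atp5pb (−log10 q 61.9) and Ndufa8 (56.7), and all 24 were H3K4me3 only in fl LSK. Of 81 cytosolic ribosomal protein genes 20 were H3K4me3 only (24.7%), 53 both, 1 H3K27ac only (Rpl19) and 7 neither, with Rps28 (50.9) and Rpl8 (50.6) among the 20. Atp5d and Rpl19 each held an H3K4me3 peak inside the gene in cKO and had an H3K4me3 peak at a gene end in fl LSK. Of 44 genes of replication and mitosis 13 were H3K4me3 only (29.5%) and 0 H3K27ac only, among them Pcna (52.6), E2f3 (51.4), Mcm7 (47.2), Cdk1 (33.9) and Top2a (23.9). Genes of the Zfp series of zinc finger proteins were H3K4me3 only in 102 of 388 (26.3%) and H3K27ac only in 15 (3.87%).

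Immediate early genes and chromatin regulators carried mostly both marks, in 19 of 24 and 36 of 43. Fos (−log10 q 53.7) and Myc (53.1) were H3K4me3 only, with the nearest H3K27ac peak 1437 bp from Fos and an H3K27ac peak inside Myc. Nr4a1 (17.1) and Egr3 (10.7) were H3K27ac only, and 1 of these 2 held an H3K4me3 peak inside the gene. Tet1, which oxidises methylated cytosine, was the 1 chromatin gene with H3K4me3 only (64.2).

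The strongest H3K4me3-only genes over the whole genome were in the main general cell genes. By −log10 q they were the zinc finger gene Zfp763 (82.2), Cops5 with Cspp1 (79.4), Mrpl32 with the proteasome subunit gene Psma2 (76.1), Qars and Tmub2 (71.3 each), the ferritin light chain gene Ftl1 (71.0), Akr1a1 (69.9), Parp8 (66.8), Gabarap, a gene of autophagy (65.6), and the coat protein gene Copa (64.9). With no H3K27ac peak within 5 kb, Ncstn, which shares its peak with Copa, Tet1, Mpst with Tst (64.0) and the interferon-induced Ifi35 (63.7) joined them. All of these were H3K4me3 only in fl LSK as well. Some of the 12 strongest had an H3K27ac peak just outside the 1 kb limit. It lay 1053 bp from an end of Parp8, 1065 bp from Qars, 1448 bp from Cops5 and 1491 bp from Cspp1. The values of Qars and Gabarap belong to peaks that lay past the 3′ end of the gene. Each also had a lower-ranked H3K4me3 peak at its 5′ end. For comparison, Lig3, with both marks, had a −log10 q of 65.6 for H3K4me3 and 53.4 for H3K27ac.

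In the HSC libraries H3K9ac was more frequent at genes with both marks or H3K4me3 only than at genes with neither. A cKO H3K9ac peak lay at an end of 225 genes (1.09%), with 1.43% of genes with both marks (1.17 to 1.73), 1.74% of H3K4me3-only (1.17 to 2.49), 1.25% of H3K27ac-only (0.774 to 1.9) and 0.697% of genes with neither (0.543 to 0.882). A DEK peak in fl HSC lay at an end of 0.286%, 0.295% and 0.687% of all genes in replicates 1, 2 and 3. By class the share was 0.555% ± 0.446 (SD, n = 3) for H3K27ac only, 0.38% ± 0.308 for H3K4me3 only, 0.404% ± 0.176 for both and 0.421% ± 0.237 for neither. The differences between classes were smaller than the spread between replicates, in which replicate 3 was the highest in every class.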

How the data were processed

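CUT&Tag peak lists of 9 libraries from mouse bone marrow were used, of which the cKO LSK H3K4me3 and H3K27ac lists define the classes. Bowtie2, Picard and MACS2 with the mm10 genome are named in the submitters' processing notes, and no version, threshold, control track or handling of repeated reads is stated there. The authors deposited 1 list per library, called per sample. Each peak carries the authors' deposited score (10 times the −log10 p), a fold enrichment (a ratio over the caller's background), and the −log10 p and −log10 q of the p-value and q-value. No such value was set against that of another list. The lists hold no read counts, so depth is unknown and limits how an absent peak can be read. In the DEK lists, 9 lines without a strand mark or with a score more than 1 away from its rule were left out (4, 1 and 4).

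A peak overlapping the window of 1 kb on either side of a gene end by at least 1 bp was counted, with genes and promoters from NCBI RefSeq (GRCm38.p6, the coordinates of mm10), and coordinates counted from 1. Where several peaks qualified, the highest −log10 q decided. Promoters (300 bases) were matched for 16456 of 20661 genes. The look-up was tested on simulated peaks. With 1 library per mark and genotype no test was run, and intervals are exact Clopper-Pearson at 95%. The DEK replicates are separate samples by label, and their SD may be technical.

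Members and the 24 gene lists were chosen with earlier results of these data known. Of the list genes 6 were not found by symbol. Named genes are, by rule, the 12 strongest of each lone class, the 12 strongest with no other mark within 5 kb, the 6 genes with both marks and the best summed ranks, up to 6 lone-mark genes per list, and the markers. Further list genes, and those said to be chosen after their values were seen, are outside it. A few list and marker genes are not reported here by name. Alternatives were windows of 500 bp, 2 kb and 5 kb, lists of equal length, a −log10 q of at least 5, summits only and annotated starts only. Added after seeing the data were promoters without a shared 50-base stretch and counting the other mark within 5 kb. Python 3.11.15, pandas 2.3.3, numpy 2.4.6, scipy 1.17.1 and matplotlib 3.10.9 were used.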

Additional observations from a re-analysis of the deposited data

Results flagged for a closer look

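The H3K27ac lists held 129 peaks on chromosome Y in fl LSK and 166 in cKO LSK, outside the autosomal genes classed here, while the H3K4me3 lists of the same cells held 1 and 0. The H3K27ac counts are signal in data that the comparisons did not use, with no control library to set beside them, and the difference between marks was not tested. The sex of the animals behind each library is not reported here.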

How the results depend on the processing

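The counts of the 4 classes stayed within 1.5 times of their value with windows of 500 bp, 2 kb and 5 kb, with a −log10 q of at least 5, with summits only, with annotated starts only and with the other mark counted within 5 kb. With lists of equal length H3K27ac only fell to 486 genes and H3K4me3 only rose to 2932, by construction from fewer H3K27ac peaks: 28.9% of the H3K27ac-only genes kept their class and 100.0% of the H3K4me3-only genes did. Under that setting the share of H3K27ac-only genes with a fl H3K4me3 peak was 36.6% in place of 20.2%, the share of H3K4me3-only genes with a fl H3K27ac peak 10.9% in place of 3.06%, and the CpG-rich share of H3K4me3-only genes 63.2% in place of 54.7%. That last share was 51.8% with the 2 kb window; the cause was not tested. Without promoters that share a 50-base stretch, neither held 6580 genes, since fewer genes were classed. Among 48 list counts, 24 moved with equal lengths, 14 with starts only, 12 without shared stretches, 5 with the −log10 q of at least 5 and 3 with the 2 kb window. Leaving out each DEK replicate gave 0.303 to 0.465% for both, 0.21 to 0.51% for H3K4me3 only, 0.327 to 0.773% for H3K27ac only and 0.288 to 0.515% for neither. No paired analysis was possible because no result comes from a test and each mark has 1 library per genotype.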
